A study of Arabidopsis thaliana with 6 samples.

Results

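The genes described here are the nuclear genes of Arabidopsis thaliana for light-harvesting proteins and for subunits of photosystem I and photosystem II. They were chosen by gene identifier and comprise 6 LHCA genes, 15 LHCB genes, PSBS, the early light-induced genes ELIP1 and ELIP2, 12 PSA genes and 9 PSB genes. These 45 genes stand among 32744 genes in the count tables. All 45 were present in the tables, and all 45 passed the filter on low counts, which 21805 genes passed in all.

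RNA was sequenced from whole seedlings in 6 libraries, 3 labelled double mutant, with AT4G15640 and AT3G21465 as the targeted genes, and 3 labelled wild type. According to its title, the series studies mutants in mitochondrial proteins of unknown function. Both groups were grown on a medium without further treatment to Boyes growth stage 1.04, and no ecotype, allele type or insertion position is given in the labels. The titles number 3 libraries per genotype, whereas the series text speaks of 2 biological replicates. It is not stated which libraries of a genotype came from separate plants or cultures. The p-values here therefore measure the spread between libraries, which may be technical.

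Levels of both targeted genes serve as a check of the labels. AT3G21465 had 4.72, 4.32 and 4.80 reads scaled to 1e6 (CPM) in the libraries labelled double mutant, against 7.87, 8.45 and 7.46 CPM in wild type. It was lower without overlap, but 340 to 385 reads remained in each library labelled double mutant (log2 fold change -0.78 ± 0.08, SE, adjusted p = 8.95e-05 in edgeR). AT4G15640 had 12.7, 13.3 and 14.2 CPM in the libraries labelled double mutant, against 11.2, 13.2 and 11.5 CPM in wild type. It was not lower (log2 fold change 0.16 ± 0.08, SE, adjusted p = 0.121 in edgeR) and passed as higher without wild type replicate 2 and with plain library totals (adjusted p between 0.00182 and 0.330 among the alternatives), so every direction below rests on the label of the libraries.

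Photosystem I and photosystem II are the pigment-protein complexes that drive light-dependent electron transport across the thylakoid membrane. Their reaction-centre proteins are encoded mostly in the plastid, whereas the antenna proteins and many peripheral subunits are encoded in the nucleus and imported. LHCA proteins form the antenna of photosystem I, and LHCB1 to LHCB3 form the light-harvesting complex II trimers. LHCB4 to LHCB6 form the minor antenna that links these trimers to the photosystem II core. Antenna transcripts respond strongly to light, the circadian clock and signals from the plastid, and ELIP transcripts are known for accumulating under high light and during greening.

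Among the 45 genes, 30 were lower and 6 higher in the libraries labelled double mutant at an edgeR adjusted p under 0.05, and 9 did not pass. Over all tested genes, 52.4% were called in either direction, 26.0% lower and 26.3% higher. The median log2 fold change was -0.40 for the 45 genes and 0.01 for all tested genes. The groups did not overlap for 35 of the 45 genes, against 61.8% of all tested genes. In whole seedlings, fewer green cells and less RNA per cell cannot be told apart. By role, all 21 photosystem subunit genes were lower, and their median log2 fold change was -0.62 (-0.31 with plain library totals), whereas of the 21 LHCA and LHCB genes 8 were lower, 4 were higher and 9 did not pass, with a median of -0.18 (0.14 with plain library totals). Fold changes refer to TMM scaling, which centres them on the bulk of genes. With those totals the median of all tested genes moved to 0.33 and that of the 45 genes to -0.08, and 19 of the 45 genes were called lower and 11 higher, against 11.9% and 52.4% of all tested genes.

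Some promoters are shown first, because they belong to the genes whose levels differed most or whose copies moved apart. Each is the stretch directly upstream of the annotated gene start in the TAIR10 genome, 5′ to 3′ on the gene's strand, up to 250 bases and shortened where a neighbouring gene reaches in. ELIP1 (chr3:8085670-8085919, minus strand) and PSBQA (chr4:11334169-11334351, plus strand) had the highest and the lowest fold change of the 45 genes. LHCB4.2 (chr3:2717367-2717556, plus strand) and LHCB4.1 (chr5:208616-208865, plus strand) encode the same minor antenna protein CP29 and were called in opposite directions. Capitals mark the G-box CACGTG, the I-box core GATAAG, the motif CCAATC and the TATA box TATAAA, each searched on both strands. The TATA matches marked in PSBQA and LHCB4.2 read TTTATA, so TATAAA lies on the opposite strand there and a working TATA box is not shown.
ELIP1: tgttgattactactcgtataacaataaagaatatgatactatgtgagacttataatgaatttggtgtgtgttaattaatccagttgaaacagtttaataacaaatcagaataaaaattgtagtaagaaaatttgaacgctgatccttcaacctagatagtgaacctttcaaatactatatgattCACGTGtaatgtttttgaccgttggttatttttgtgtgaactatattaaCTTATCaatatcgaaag
PSBQA: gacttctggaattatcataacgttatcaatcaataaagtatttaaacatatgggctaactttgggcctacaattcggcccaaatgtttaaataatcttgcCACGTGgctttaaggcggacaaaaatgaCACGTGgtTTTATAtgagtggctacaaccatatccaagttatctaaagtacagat
LHCB4.2: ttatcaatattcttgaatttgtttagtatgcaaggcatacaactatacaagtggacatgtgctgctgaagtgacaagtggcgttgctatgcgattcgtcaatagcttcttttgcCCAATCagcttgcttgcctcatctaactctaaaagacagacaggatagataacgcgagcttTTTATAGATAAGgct
LHCB4.1: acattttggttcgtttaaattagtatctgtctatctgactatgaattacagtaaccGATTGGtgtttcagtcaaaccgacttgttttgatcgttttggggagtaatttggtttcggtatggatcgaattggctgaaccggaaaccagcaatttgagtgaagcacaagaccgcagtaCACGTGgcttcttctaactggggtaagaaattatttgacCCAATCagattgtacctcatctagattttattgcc

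The photosystem I subunit genes were lower throughout, against 26.0% of all tested genes. PSAF (AT1G31330) encodes the subunit that docks plastocyanin, and it had 386, 304 and 331 CPM in the libraries labelled double mutant, against 773, 741 and 716 CPM in wild type. Every library labelled double mutant lay far below every wild-type library (log2 fold change -1.13 ± 0.10, SE, adjusted p = 2.78e-05 in edgeR). PSAN (AT5G64040), a lumenal subunit on the same side of the complex, had 203, 144 and 179 CPM in the libraries labelled double mutant, against 403, 371 and 315 CPM in wild type. The groups did not overlap here either (-1.05 ± 0.14, SE, adjusted p = 0.000269 in edgeR). PSAK (AT1G30380), which helps bind the LHCA belt, had 298, 252 and 291 CPM in the libraries labelled double mutant, against 507, 499 and 460 CPM in wild type. It fell by 0.80 on the log2 scale. PSAG (AT1G55670), which resembles PSAK and also faces the LHCA belt, averaged 275.1 ± 27.8 CPM in the libraries labelled double mutant and 437.6 ± 13.6 CPM in wild type (SD, n = 3 each). It fell by 0.67.

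The remaining photosystem I genes had log2 fold changes between -0.76 and -0.23. PSAH1 (AT3G16140) and PSAH2 (AT1G52230) encode the subunit near the docking site of mobile light-harvesting complex II, and their log2 fold changes were -0.76 ± 0.08 and -0.75 ± 0.09 (SE). PSAH2 had 153, 136 and 157 CPM in the libraries labelled double mutant, against 271, 258 and 221 CPM in wild type, so its groups stood apart as those of PSAF did. PSAE1 (AT4G28750) and PSAE2 (AT2G20260) encode a stromal subunit involved in ferredoxin docking and had log2 fold changes of -0.59 ± 0.09 and -0.51 ± 0.07 (SE). PSAO (AT1G08380) and PSAL (AT4G12800) sit beside PSAH in the complex. PSAO had 489, 439 and 502 CPM in the libraries labelled double mutant, against 686, 630 and 599 CPM in wild type, and PSAL had 598, 500 and 579 CPM, against 710, 725 and 662 CPM. Their changes of -0.42 and -0.32 were smaller in size than that of PSAF, although the groups again did not overlap. PSAD1 (AT4G02770) and PSAD2 (AT1G03130) encode the main ferredoxin-docking subunit. PSAD1 averaged 385.3 ± 20.1 CPM in the libraries labelled double mutant and 498.9 ± 29.1 CPM in wild type (SD, n = 3 each), with a log2 difference of -0.37 ± 0.08 (SE, adjusted p = 0.00327 in edgeR). PSAD2 had the smallest change of the 12, at -0.23 ± 0.08 (SE, adjusted p = 0.0324 in edgeR). Its call ended without double mutant replicate 2 or 3 or wild type replicate 1 or 2 (adjusted p between 0.0116 and 0.394 among the alternatives), and with library totals its log2 fold change was 0.09. The PSAL call was lost without double mutant replicate 2 and with library totals, where its log2 fold change was -0.01 (adjusted p between 0.000617 and 0.95 among the alternatives). With library totals PSAD1 (-0.06), PSAO (-0.10) and PSAE2 (-0.20) also lost their calls. In that setting 7 of the 12 PSA genes were called lower and none higher, with PSAD2 the only positive value. Of all tested genes 11.9% were then called lower and 52.4% higher.

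The lumenal photosystem II genes, which encode the proteins that shield the oxygen-evolving manganese cluster, were also lower in all 5 cases. Of all tested genes, 26.0% were lower. PSBQA (AT4G21280, chr4:11334352-11335815, plus strand) had 157, 132 and 147 CPM in the libraries labelled double mutant, against 367, 387 and 348 CPM in wild type. The highest library labelled double mutant was below the lowest wild-type library by a wide margin, and the log2 fold change of -1.34 ± 0.08 was the lowest of the 45 genes (SE, adjusted p = 5.4e-06 in edgeR). Its paralog PSBQ2 (AT4G05180) had 460, 377 and 432 CPM in the libraries labelled double mutant, against 587, 545 and 472 CPM in wild type. That change was smaller, at -0.34 ± 0.11 (SE, adjusted p = 0.0250 in edgeR), and its call ended without double mutant replicate 2 or 3 or wild type replicate 1 or 2 and with library totals, where the value was -0.02 (adjusted p between 0.00379 and 0.846 among the alternatives). PSBO1 (AT5G66570) and PSBO2 (AT3G50820) encode the manganese-stabilising protein. PSBO1 had 1154, 1004 and 1111 CPM in the libraries labelled double mutant, against 1700, 1655 and 1522 CPM in wild type. PSBO2 had 266, 229 and 249 CPM in the libraries labelled double mutant, against 441, 437 and 413 CPM in wild type. They fell by 0.58 and 0.79 on the log2 scale. PSBP1 (AT1G06680), which retains calcium and chloride at the cluster together with PSBQ, averaged 756.6 ± 67.6 CPM in the libraries labelled double mutant and 1238 ± 108 CPM in wild type (SD, n = 3 each), with a log2 difference of -0.71 ± 0.10 (SE). Its annotated exons overlap a neighbouring gene on the same strand by 22 bases, and those of PSAD2 by 2 bases.

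The small membrane subunits of photosystem II followed the same direction. PSBR (AT1G79040), which takes part in binding the lumenal proteins, averaged 833.3 ± 67.6 CPM in the libraries labelled double mutant and 1285 ± 153 CPM in wild type (SD, n = 3 each). PSBW (AT2G30570), found where light-harvesting complex II meets the core, had 373, 308 and 355 CPM in the libraries labelled double mutant, against 609, 606 and 553 CPM in wild type. PSBR fell by 0.62 and PSBW by 0.77 on the log2 scale. PSBX had 394, 329 and 383 CPM in the libraries labelled double mutant, against 549, 566 and 498 CPM in wild type. PSBX (AT2G06520) and PSBY (AT1G67740), both small subunits near cytochrome b559, had log2 fold changes of -0.54 ± 0.09 and -0.36 ± 0.08 (SE), and PSBY lost its call with library totals (-0.04). With library totals, 14 of the 21 photosystem subunit genes were called lower and none higher, against 11.9% and 52.4% of all tested genes. The groups did not overlap for any of these 21 genes, and they did not overlap for 61.8% of all tested genes.

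**Figure D1:**
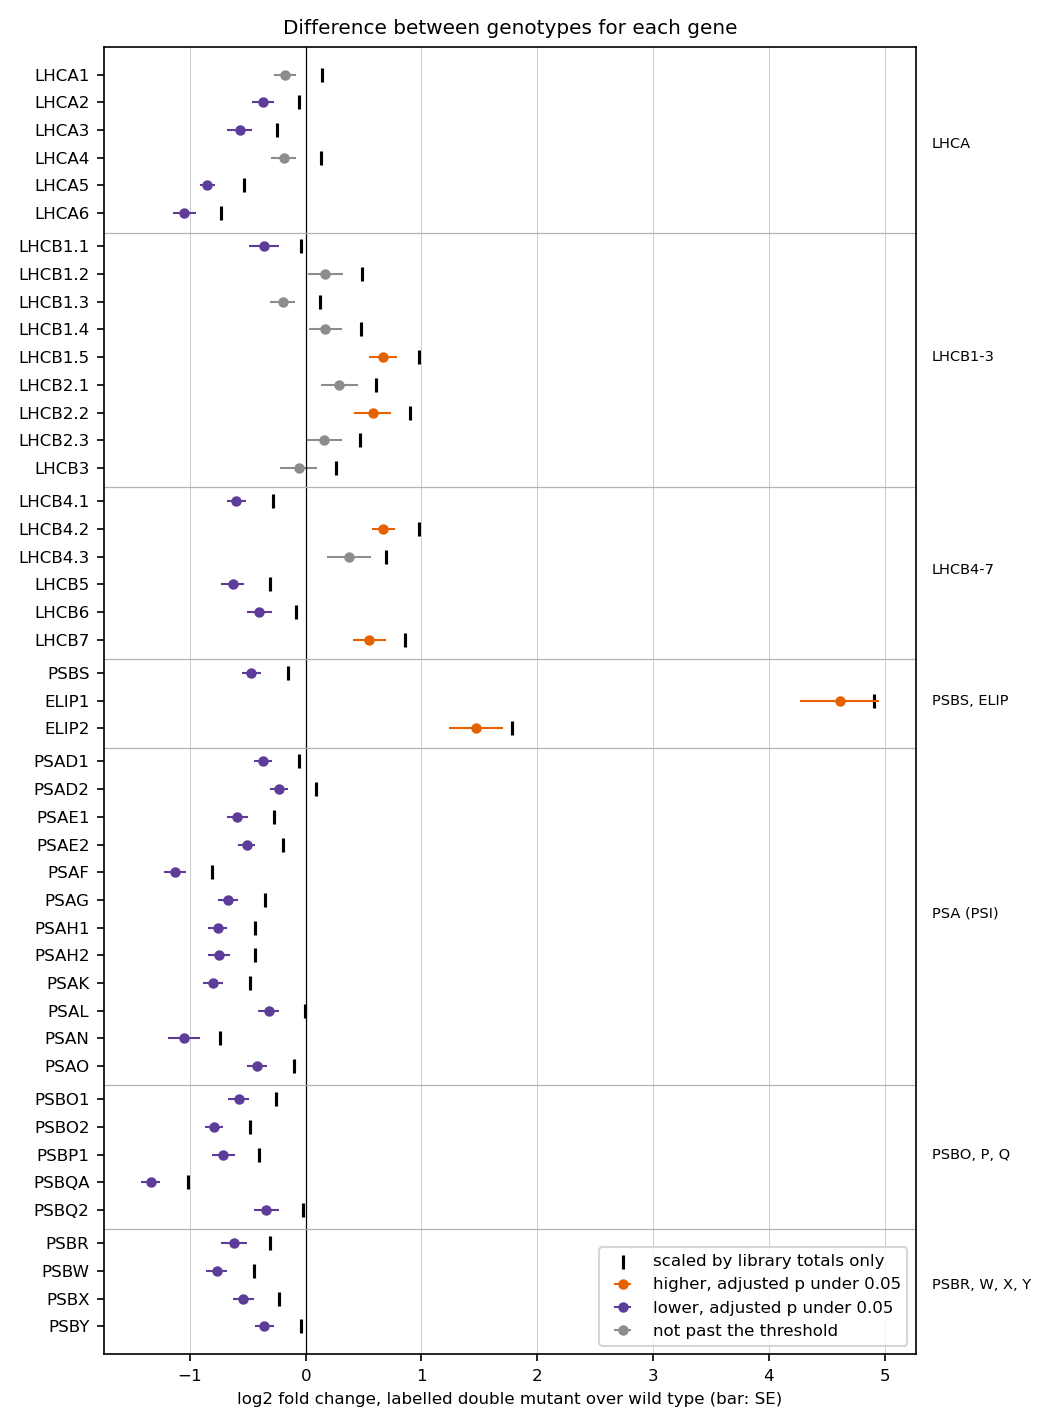
Log2 fold change, libraries labelled double mutant over wild type, of each of the 45 genes with its standard error, ordered by role. All 21 photosystem subunit genes lie below 0 with TMM scaling (20 of 21 with library totals), whereas the LHCB genes lie on both sides and ELIP1 stands apart at 4.61.

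The antenna of photosystem I was lower for 4 of its 6 genes, against 26.0% of all tested genes. LHCA6 (AT1G19150) and LHCA5 (AT1G45474) encode low-abundance antenna proteins that join photosystem I to the NDH complex of cyclic electron flow, and they had the largest changes. LHCA6 had 29.8, 22.0 and 25.1 CPM in the libraries labelled double mutant, against 52.3, 52.2 and 54.2 CPM in wild type. LHCA5 had 32.0, 28.6 and 29.4 CPM in the libraries labelled double mutant, against 56.1, 53.2 and 52.8 CPM in wild type. The log2 fold changes were -1.05 ± 0.10 for LHCA6 and -0.85 ± 0.06 for LHCA5 (SE, adjusted p = 5.15e-05 and 1.34e-05 in edgeR). The abundant belt proteins changed less. LHCA3 (AT1G61520) had 982, 784 and 909 CPM in the libraries labelled double mutant, against 1451, 1347 and 1166 CPM in wild type, and fell by 0.57. LHCA2 (AT3G61470), which pairs with LHCA3, fell by 0.37 (adjusted p = 0.00987 in edgeR), and with library totals its log2 fold change was -0.06. LHCA2 shares 8.76% of its 50-base stretches with AT5G28450, and 29.2% of its exon bases align to that gene at 95% identity or more. Its counts are therefore uncertain.

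LHCA1 (AT3G54890) and LHCA4 (AT3G47470), which form the other LHCA dimer, did not pass. LHCA1 had 738, 661 and 750 CPM in the libraries labelled double mutant, against 860, 863 and 716 CPM in wild type. LHCA4 had 963, 851 and 1005 CPM in the libraries labelled double mutant, against 1143, 1144 and 927 CPM in wild type. Wild type replicate 3 fell among the libraries labelled double mutant for both genes. Their log2 fold changes were -0.18 ± 0.10 and -0.19 ± 0.11 (SE, adjusted p = 0.145 and 0.170 in edgeR). Without wild type replicate 3 both passed the threshold as lower (lowest adjusted p over all alternatives 0.0428 for LHCA1 and 0.0476 for LHCA4), and with library totals they had log2 fold changes of 0.14 and 0.13 and did not pass.

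The 9 genes of the light-harvesting complex II trimers gave 1 lower call, 2 higher calls and 6 that did not pass. Of all tested genes, 26.0% were called lower and 26.3% higher, so the trimer genes were not called more often than genes at large. LHCB1.5 (AT2G34420, also LHB1B2, chr2:14522524-14523568, minus strand) had 2297, 1879 and 2326 CPM in the libraries labelled double mutant, against 1458, 1439 and 1201 CPM in wild type. The groups were well apart and the log2 fold change was 0.67 ± 0.12 (SE, adjusted p = 0.00145 in edgeR). LHCB2.2 (AT2G05070) had 226, 198 and 263 CPM in the libraries labelled double mutant, against 170, 172 and 117 CPM in wild type. It was higher, at 0.58 ± 0.16 (SE, adjusted p = 0.0132 in edgeR), and its call was lost without double mutant replicate 3 (adjusted p between 0.000384 and 0.0514 among the alternatives). LHCB1.1 (AT1G29920) had 540, 534 and 655 CPM in the libraries labelled double mutant, against 762, 840 and 616 CPM in wild type. The groups overlapped, and its lower call (-0.36 ± 0.13, SE, adjusted p = 0.0422 in edgeR) ended without double mutant replicate 1 or 2, without wild type replicate 1 or 2 with the replicate number as a block and with library totals, where the value was -0.04 (adjusted p between 0.00818 and 0.811 among the alternatives).

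LHCB1.3 (AT1G29930), the most abundant of the 45 genes, had 3529, 3196 and 3747 CPM in the libraries labelled double mutant, against 4185, 4329 and 3487 CPM in wild type. The ranges overlapped and the log2 fold change was -0.20 ± 0.11 (SE, adjusted p = 0.176 in edgeR), with 0.12 under library totals. LHCB1.2 (AT1G29910) averaged 958.8 ± 163 CPM in the libraries labelled double mutant and 851.7 ± 143 CPM in wild type (SD, n = 3 each), with a log2 difference of 0.17 ± 0.15 (SE, adjusted p = 0.370 in edgeR). LHCB2.1 (AT2G05100) had 224, 189 and 259 CPM in the libraries labelled double mutant, against 202, 205 and 141 CPM in wild type. Its lowest library labelled double mutant lay among the wild-type libraries, and its log2 fold change of 0.29 ± 0.16 (SE) did not pass. LHCB1.4 (AT2G34430) had 0.17 ± 0.14 (SE) and LHCB2.3 (AT3G27690) had 0.16 ± 0.15 (SE), neither past the threshold. LHCB3 (AT5G54270), the third component of the trimers, averaged 593.0 ± 80.0 CPM in the libraries labelled double mutant and 617.0 ± 128 CPM in wild type (SD, n = 3 each), with a log2 difference of -0.06 ± 0.16 (SE, adjusted p = 0.787 in edgeR). With library totals 6 of these 9 genes were called higher and none lower, against 52.4% and 11.9% of all tested genes. Their median was then 0.48, and that of all tested genes was 0.33.

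The values of near-identical copies carry a further limit. LHCB1.1, LHCB1.2, LHCB1.3, LHCB1.4 and LHCB1.5 share between 10.6% and 20.5% of their 50-base stretches with at least another LHCB1 gene. LHCB2.1 and LHCB2.2 share 22.7% and 28.2% of theirs with each other. Alignments to another gene at 95% identity or more covered 62.6%, 68.4% and 67.6% of the exon bases of LHCB1.1, LHCB1.2 and LHCB1.3. No such alignment was found for LHCB1.4, LHCB1.5, LHCB2.1 or LHCB2.2, which share exact stretches all the same. Reads that align to several places were counted in full at each place, so each of these 7 genes can hold reads of its copies and its own value is uncertain. The replicates also varied more here than for the photosystem subunits. The median coefficient of variation between replicates was 12.6% in the libraries labelled double mutant and 17.0% in wild type for the trimer genes, and 8.56% and 6.32% for the 21 photosystem subunit genes. Double mutant replicate 2 was the lowest library of its group for all 9 trimer genes and for 42 of the 45 genes. Wild type replicate 3 was the lowest of its group for all 9 trimer genes and for 40 of the 45 genes.

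In the minor antenna, copies for a single protein were called in opposite directions. LHCB4.1 (AT5G01530, chr5:208866-210548, plus strand) had 673, 582 and 641 CPM in the libraries labelled double mutant, against 959, 1002 and 903 CPM in wild type. LHCB4.2 (AT3G08940, chr3:2717557-2718923, plus strand) had 345, 303 and 338 CPM in the libraries labelled double mutant, against 216, 228 and 178 CPM in wild type. Neither gene showed overlap between the groups, and the log2 fold changes were -0.60 ± 0.08 for LHCB4.1 and 0.67 ± 0.10 for LHCB4.2 (SE, adjusted p = 0.000417 and 0.000677 in edgeR). These directions were the same with library totals, at -0.28 and 0.98. LHCB4.3 (AT2G40100), the stress-responsive copy now also called LHCB8, had 16.6, 14.3 and 13.9 CPM in the libraries labelled double mutant, against 8.18, 15.3 and 10.9 CPM in wild type. Wild type replicate 2 lay within the range of the libraries labelled double mutant, and the log2 fold change of 0.37 ± 0.19 did not pass (SE, adjusted p = 0.133 in edgeR; between 0.00412 and 0.330 among the alternatives, past the threshold without that library and with library totals).

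LHCB5 (AT4G10340, CP26) and LHCB6 (AT1G15820, CP24), the other minor antenna proteins, were lower. LHCB5 had 919, 786 and 908 CPM in the libraries labelled double mutant, against 1402, 1454 and 1185 CPM in wild type, a log2 fold change of -0.63 ± 0.10 (SE, adjusted p = 0.00110 in edgeR). LHCB6 had 460, 414 and 502 CPM in the libraries labelled double mutant, against 643, 651 and 525 CPM in wild type, a log2 fold change of -0.40 ± 0.11 (SE, adjusted p = 0.0126 in edgeR) and of -0.08 with library totals. LHCB7 (AT1G76570), a weakly expressed relative, averaged 4.96 ± 0.879 CPM in the libraries labelled double mutant and 3.39 ± 0.278 CPM in wild type (SD, n = 3 each). It was higher, without overlap between the groups (0.55 ± 0.14, SE, adjusted p = 0.00947 in edgeR).

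**Figure D2:**
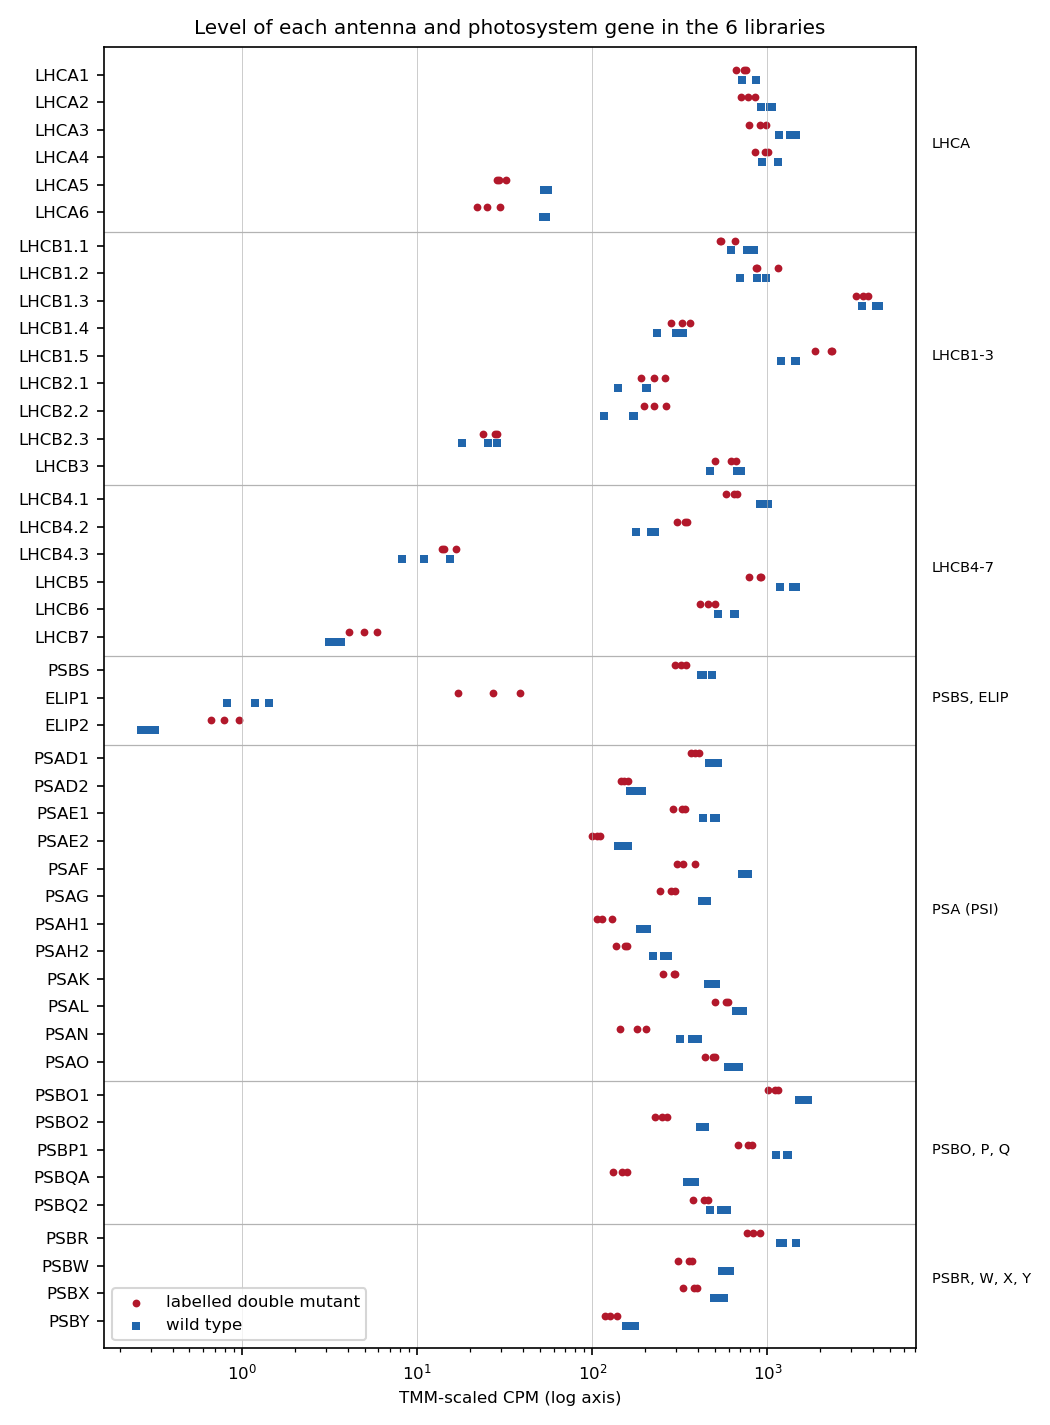
CPM of the genes in each library on a log axis, by role, 1 point per library, with the libraries labelled double mutant (circles) above wild type (squares). LHCB4.1 and LHCB4.2 lie closer together in the libraries labelled double mutant than in wild type, and ELIP1 spans 17.1 to 38.5 CPM there against 0.820 to 1.42 CPM in wild type.

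The 3 photoprotection genes went in different directions. ELIP1 (AT3G22840, chr3:8084405-8085669, minus strand), which encodes a chlorophyll-binding protein of the light-harvesting family, had 38.5, 26.9 and 17.1 CPM in the libraries labelled double mutant, against 1.42, 1.19 and 0.820 CPM in wild type. These values rest on 3139, 2179 and 1210 reads in the libraries labelled double mutant and on 69, 79 and 56 reads in wild type. The lowest library labelled double mutant was many times above the highest wild-type library, and the fitted level was 24.5-fold higher (log2 fold change 4.61 ± 0.34, SE, adjusted p = 1.17e-05 in edgeR; 4.91 with library totals). The spread was the widest of the 45 genes in the libraries labelled double mutant, with a coefficient of variation of 38.9%. ELIP2 (AT4G14690), the paralog of ELIP1, had 0.955, 0.790 and 0.663 CPM in the libraries labelled double mutant, against 0.289, 0.316 and 0.264 CPM in wild type. It was also higher (1.47 ± 0.23, SE, adjusted p = 0.000745 in edgeR), on no more than 78 reads in any library. PSBS (AT1G44575), which triggers the rapid dissipation of excess light energy, had 342, 297 and 320 CPM in the libraries labelled double mutant, against 419, 482 and 429 CPM in wild type. PSBS fell by 0.47 (adjusted p = 0.00165 in edgeR), and by 0.15 with library totals, where it did not pass.

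Shares of paralogs within a library do not depend on the scaling, and 9 pairs were compared. Each share below is the percentage of the pair's reads assigned to the gene named first. The smallest p that an exact two-sided permutation test of 3 against 3 libraries can give is 0.1, which is 0.15 after adjustment over the 9 pairs, so no pair could pass 0.05. LHCB4.2 made up 33.9%, 34.3% and 34.5% of LHCB4.2 and LHCB4.1 together in the libraries labelled double mutant, against 18.4%, 18.5% and 16.5% in wild type. The groups were far apart compared with their spread, and the log2 ratio of these copies was higher by 1.27 (exact permutation p = 0.1, adjusted 0.150). PSBQ2 made up 74.6%, 74.0% and 74.7% of the PSBQ reads in the libraries labelled double mutant, against 61.5%, 58.5% and 57.5% in wild type. Its log2 ratio to PSBQA was higher by 1.01 (exact permutation p = 0.1, adjusted 0.150). ELIP2 made up 3.01% ± 0.67 of the ELIP reads in the libraries labelled double mutant and 20.7% ± 3.74 in wild type (SD, n = 3 each), a difference of -3.09 in the log2 ratio (exact permutation p = 0.1, adjusted 0.150).

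The other pairs are given by their means. PSBO2 made up 18.6% ± 0.21 of the PSBO reads in the libraries labelled double mutant and 20.9% ± 0.381 in wild type, and PSAD2 28.2% ± 0.122 and 26.3% ± 0.528 of the PSAD reads (SD, n = 3 each). These small differences exceeded the spread between libraries (exact permutation p = 0.1 for each, adjusted 0.150). LHCB4.3 made up 2.31% ± 0.168 of LHCB4.3 and LHCB4.1 together in the libraries labelled double mutant and 1.18% ± 0.331 in wild type (SD, n = 3 each), a difference of 1.02 in the log2 ratio (exact permutation p = 0.1, adjusted 0.150). The shares of PSAE2 (24.9% and 24.0%), PSAH2 (56.0% and 55.9%) and LHCB2.3 beside LHCB2.1 (10.7% and 11.5%), each with the libraries labelled double mutant first, overlapped between the groups. Their exact permutation p-values were 0.3, 0.9 and 0.2 (n = 3 each; adjusted 0.337, 0.9 and 0.257).

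**Figure D3:**
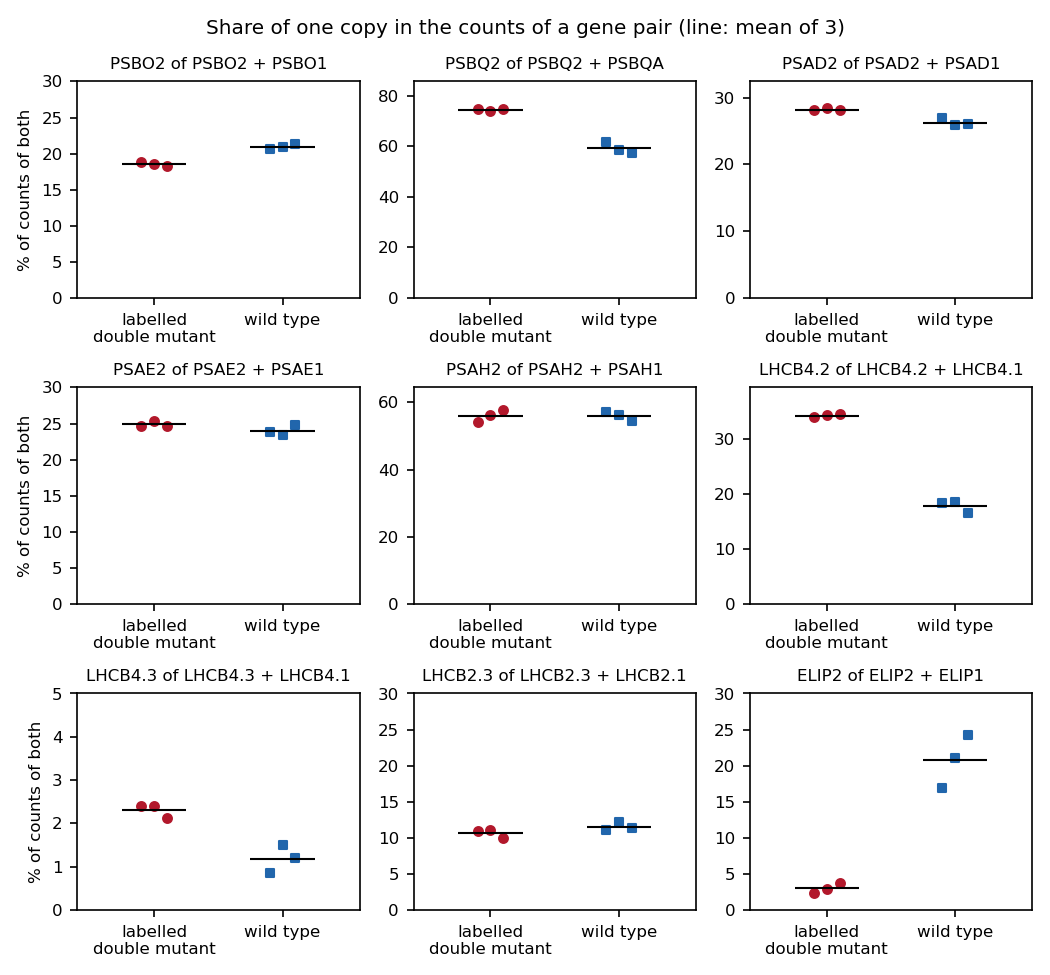
Share of the first-named gene among the reads of each paralog pair, in percent, for each library labelled double mutant and each wild-type library. LHCB4.2 lies at 33.9% to 34.5% in the libraries labelled double mutant and at 16.5% to 18.5% in wild type, and the PSAH2 shares overlap. Lines are means of 3 libraries.

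Summed over the classes, antenna transcripts stood higher relative to photosystem transcripts in each library labelled double mutant than in any wild-type library. The summed CPM of the 9 trimer genes was 2.43, 2.53 and 2.78 times that of the 12 PSA genes in the libraries labelled double mutant, against 1.61, 1.73 and 1.46 times in wild type. For the 6 LHCA genes over the 12 PSA genes the ratio was 1.01, 1.01 and 1.03 in the libraries labelled double mutant, against 0.860, 0.864 and 0.802 in wild type. The minor antenna over the lumenal photosystem II genes gave 0.848, 0.867 and 0.889 in the libraries labelled double mutant, against 0.734, 0.777 and 0.725 in wild type. They are CPM ratios, not corrected for gene length, and are given without a test. Reads counted at several LHCB1 or LHCB2 copies enter the trimer sum repeatedly in both groups.

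Levels of different genes were compared per kilobase of exon. LHCB1.3 had the highest level in both groups, at 2838 CPM per kilobase in the libraries labelled double mutant and 3252 in wild type. LHCB1.5 took the second place in the libraries labelled double mutant, with 2074 CPM per kilobase, and PSBR took it in wild type, with 1639, while PSBR had 1063 in the libraries labelled double mutant and LHCB1.5 had 1307 in wild type. ELIP2 was the lowest in both groups, at 0.883 CPM per kilobase in the libraries labelled double mutant and 0.319 in wild type. PSBQA was at place 36 in the libraries labelled double mutant and at place 26 in wild type, and ELIP1 at place 40 and 44. Neighbours in this order could lie within the spread between libraries, as LHCA1 (563 CPM per kilobase) and PSBP1 (558) did in the libraries labelled double mutant.

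The promoters were searched for short motifs with known roles in light-regulated genes. The motif CCAATC, which has been linked to targets of the GLK transcription factors, lay within 250 bases upstream of 10 of the 21 LHCA and LHCB genes (47.6%), of 1 of the 21 photosystem subunit genes (4.76%) and of none of the 3 photoprotection genes. It lay in 10.2% of 27443 protein-coding promoters of that length. By call, it was present for 3 of the 30 lower genes, 3 of the 6 higher genes and 5 of the 9 genes that did not pass. The genes with a match were LHCA1, LHCA3, LHCA4, LHCB1.3, LHCB1.5, LHCB2.1, LHCB2.2, LHCB2.3, LHCB4.1, LHCB4.2 and PSBQ2. Both LHCB4.1 and LHCB4.2 carry it, as printed above, and a role of the motif in their levels was not tested. A search for CCAAT alone, which every CCAATC contains, matched 62.2% of the 45 promoters and 46.0% of all promoters.

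The G-box, a site bound by several light and stress regulators, was found for 10 of the 45 genes (22.2%) and for 6.49% of all promoters. It occurs at -66 to -61 in ELIP1 and at -83 to -78 and -55 to -50 in PSBQA, counted back from the base before the gene start as -1. ELIP1 and PSBQA had the highest and the lowest fold change of the 45 genes, and a role of the G-box in their levels was not tested. The I-box core was present for 22.2% of the 45 genes and 12.3% of all promoters. The letters TATAAA, on either strand and at any position, were present for 42.2% and 47.3%. The evening element AAAATATCT of clock-regulated genes was found for LHCA5 alone (2.22% of the 45 genes) and for 2.36% of all promoters. These matches describe letters in the reference sequence, and binding was not measured.

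The wider thylakoid machinery was taken from 5 lists with 45 further genes. Of these, 36 were lower and 3 higher, and the median was -0.64 on the log2 scale (26 lower and 7 higher with library totals). Of all tested genes, 26.0% were lower and 26.3% higher (11.9% and 52.4% with library totals). Electron transport genes were lower in 12 of 15 cases and higher in 1. FD2, the main leaf ferredoxin, had 202, 143 and 153 CPM in the libraries labelled double mutant, against 485, 493 and 455 CPM in wild type, and fell by 1.53. The log2 fold changes were -1.40 for FD1, another ferredoxin, -1.31 for PETE2, the main plastocyanin gene, -1.13 for PETC, the Rieske protein of the cytochrome b6f complex, and -0.98 for ATPD, a subunit of the ATP synthase. The photosystem assembly list had 11 of 12 genes lower, among them PPL1 (-1.29), PSBTN (-1.09), HCF136 (-0.92), a photosystem II assembly factor, and RBD1, which averaged 22.82 ± 2.85 CPM in the libraries labelled double mutant and 45.69 ± 0.867 CPM in wild type (SD, n = 3 each).

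The smaller lists were mostly lower too, beside 26.0% lower and 26.3% higher among all tested genes. The LHC insertion list, whose proteins deliver antenna proteins to the thylakoid membrane, had 3 of 4 genes lower, with ALB3 at -0.70, CPSRP54 at -0.64 and CPFTSY at -0.44, whereas CPSRP43 had -0.03 ± 0.13 (SE, adjusted p = 0.862 in edgeR). The thylakoid regulation list had 5 genes lower and 2 higher of 8. The zeaxanthin epoxidase gene ZEP had 43.4, 39.6 and 45.2 CPM in the libraries labelled double mutant, against 27.9, 26.2 and 27.5 CPM in wild type, and the violaxanthin de-epoxidase gene VDE1 averaged 26.41 ± 2.55 CPM in the libraries labelled double mutant and 47.57 ± 3.88 CPM in wild type (SD, n = 3 each). ZEP rose by 0.65 and VDE1 fell by 0.85 on the log2 scale, so these opposing enzymes of the xanthophyll cycle were called in opposite directions. CURT1B, which shapes grana margins, fell by 0.87, and PBCP, a phosphatase of photosystem II core proteins, by 0.51. Of 6 LHC-like genes 5 were lower, including LIL3:1 (-0.83), SEP1, the stress-enhanced protein (-0.84), OHP2 (-0.62) and OHP1 (-0.43), the last of these being one-helix proteins.

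The plastid-encoded photosystem genes were set beside the nuclear ones. Of 15 plastid psb genes 13 were lower, and their median on the log2 scale was -0.54 (-0.21 with library totals, 8 lower and 1 higher). Of 5 plastid psa genes 2 were lower, with a median of -0.20 (0.12 with library totals). The photosystem I reaction-centre genes psaA and psaB had log2 fold changes of -0.13 ± 0.13 and -0.12 ± 0.13 (SE, adjusted p = 0.442 and 0.463 in edgeR), whereas the 12 nuclear PSA genes had a median of -0.63. With library totals psaA had 0.18 and psaB 0.20, and psaB was then called higher (adjusted p = 0.0376 in edgeR). Both values lay below the median of all tested genes in that setting, 0.33. With library totals 9 of the 20 plastid genes were called lower and 2 higher, against 11.9% and 52.4% of all tested genes.

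**Figure D4:**
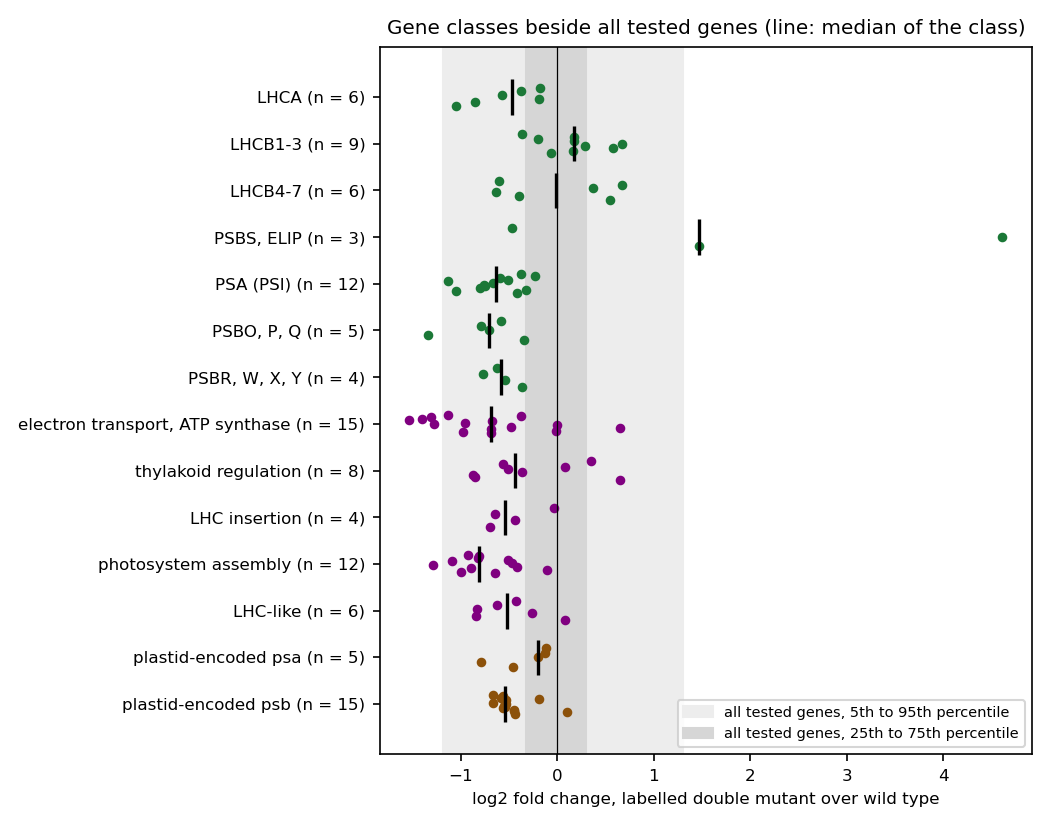
Log2 fold changes of the genes by class, libraries labelled double mutant over wild type, with a line at the median of each class. Green points are the 45 genes, purple the further nuclear lists and brown plastid genes, and grey bands hold the 5th to 95th and 25th to 75th percentiles of all tested genes. Medians are -0.63 for PSA, -0.71 for PSBO, PSBP and PSBQ, -0.47 for LHCA and 0.17 for LHCB1 to LHCB3 with TMM scaling, and with library totals they are -0.31, -0.40, -0.16 and 0.48 in the same order.

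The libraries differed in composition beside these results. Total counts were 62235559 to 78671470 in the libraries labelled double mutant and 53193772 to 77446157 in wild type. Plastid genes took 44.1% to 49.0% of counts in the libraries labelled double mutant and 55.2% to 57.3% in wild type, and mitochondrial genes 4.25% to 4.64% and 1.56% to 1.71%. The 45 genes together took 2.49% ± 0.169 of all counts in the libraries labelled double mutant and 2.51% ± 0.254 in wild type (SD, n = 3 each), and 4.63% to 5.35% against 5.40% to 6.20% of nuclear counts. Of 14 root markers 7 were lower and 6 higher, with a summed level of 535.4 to 586.4 CPM in the libraries labelled double mutant and 851.8 to 1256 CPM in wild type, mostly from PYK10 (501 to 552 CPM in the libraries labelled double mutant and 813 to 1203 CPM in wild type). Of 11 shoot markers 2 were lower and 1 higher, with a sum of 71.95 to 77.69 CPM in the libraries labelled double mutant and 67.75 to 72.12 CPM in wild type. Over all tested genes, 26.0% were lower and 26.3% higher. Seed markers summed to 0.1412 to 2.928 CPM in the libraries labelled double mutant and 0.5874 to 5.405 CPM in wild type, and none of the 2 tested of 7 was called. Floral markers summed to 0.294 to 0.4939 CPM in the libraries labelled double mutant and 1.597 to 1.776 CPM in wild type, mostly from SEP3 (0.0706 to 0.259 CPM in the libraries labelled double mutant and 1.36 to 1.48 CPM in wild type). SEP3 was lower, and PI, the other tested marker of the 5, had a log2 fold change of 0.56 ± 0.37 (SE, adjusted p = 0.237 in edgeR). No marker was at 0 in every library. The part of tissue composition in the results was not tested.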

How the data were processed

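The deposited values are raw counts per gene, made by the authors with featureCounts 2.0.0 per the file headers. STAR and TAIR10 are named in the submitters' processing notes. Per the file headers, reads were counted on the reverse strand, at every alignment of a multi-mapped read. Groups come from the genotype labels. CPM are counts scaled to a TMM-adjusted total of 1e6, computed here from the deposited counts. Fold changes were fitted over the whole table with edgeR 4.0.16 (R 4.3.3): filterByExpr, quasi-likelihood fit, group as the only term, two-sided test, Benjamini-Hochberg adjustment over 21805 genes, threshold 0.05. Alternatives used DESeq2 1.42.0 and limma 3.58.1. The fit was also run on simulated counts with few changed genes. That run does not check the scaling where many genes differ, as they do here. Near-identical copies were found with BLAST+ 2.17.0 (95% identity over 50 bases) and shared 50-base stretches. The members and lists were chosen with earlier results of these data known; motifs and printed promoters were chosen after fold changes were seen. Named genes are all 45, both targeted genes, up to 4 called genes per further list with the smallest adjusted p, and the highest marker genes; FD2, CPSRP43, psaA and psaB were named after their values were seen. All 45 genes have the same start and end in the deposited tables and in the reference annotation of TAIR10.1, from which promoters were read.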

Additional observations from a re-analysis of the deposited data

How the results depend on the processing

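Over 12 alternatives chosen at the start (RLE size factors, nuclear genes only, no filter on low counts, DESeq2, limma-voom, a replicate block and leaving out each library), the number of the 45 genes called lower stayed between 26 and 32 and the number higher between 5 and 7. Of 540 gene-by-alternative results 518 kept direction and side of the threshold, 15 lost the call, 3 gained it and 4 reversed, and 31 of 36 called genes kept their call throughout. The reversals concern uncalled genes. With a library left out, the log2 fold change lay between -0.22 and 0.05 for LHCB3 and between -0.01 and 0.30 for LHCB2.3, and the PSAH2 share difference lay between -0.706 and 1.09 percentage points. Library totals without TMM, added after seeing the data, gave 19 lower and 11 higher genes among the 45, and 7 higher among the further pathway genes. Of all tested genes 11.9% were then lower and 52.4% higher, and their median log2 fold change was 0.33. The sign turned positive for LHCA1 (0.14), LHCA4 (0.13), LHCB1.3 (0.12), LHCB3 (0.26) and PSAD2 (0.09), all still below that median. Same-number correlations of deviations between the groups were 0.238, 0.0433 and 0.00296 for replicates 1 to 3. Different-number correlations lay between -0.159 and 0.146, so only replicate 1 stood above them. With the replicate block 29 of the 45 genes were lower and 6 higher, and 11373 of all genes were called, against 11421. The number of all genes called lay between 9511 and 11246 when a library was left out. Depth limits few values: only ELIP2 has under 100 reads in every library.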
